A study of Mus musculus with 8 samples.

Results

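Integrins and laminins are the receptor and ligand families through which cells hold on to basement membrane. In mRNA-seq of the embryonic mouse bowel they were taken as every gene whose symbol names an integrin alpha chain, an integrin beta chain numbered 1 to 8, or a laminin alpha, beta or gamma chain. The rule found 38 of 29092 genes, under 37 symbols because *Itgam* is listed under 2 gene identifiers. There were 19 integrin alpha, 8 integrin beta, 5 laminin alpha, 3 laminin beta and 3 laminin gamma genes. Enteric neural crest-derived cells (ENCDCs) were sorted as the GFP+ cells, and gut cells as the GFP- cells, from bowels of E13.5 *Ednrb-EGFP* mice that the labels call wild-type. The reporter puts GFP under the control of *Ednrb*, an endothelin receptor gene of the enteric nervous system (ENS) lineage, so the ENCDC libraries hold progenitors, neurons and glial precursors together, and the gut cell libraries hold all other bowel cells as one aggregate. The embryos came from heterozygous *Ednrb-EGFP* mice mated with wild-type mice, and GFP+ bowels were taken, so these bowels carried the reporter. Each population had 4 libraries. Some libraries were made from the pooled RNA of more than 1 sample, so p-values here rest on library-to-library spread.

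An integrin is a pair of 1 alpha and 1 beta chain that spans the membrane, binds matrix or another cell outside, and couples to actin inside. The alpha chain largely sets the ligand: some pairs read laminin, some collagen, some the RGD motif of fibronectin and vitronectin, and a set found on leukocytes binds other cells. A laminin is a trimer of 1 alpha, 1 beta and 1 gamma chain, and it is the polymer on which a basement membrane is built. Neural crest cells travel through fibronectin- and laminin-rich matrix to colonize the bowel, and beta1 integrins are needed in the crest lineage for a normal ENS.

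Total counts ran from 13250893 to 13267220 per library, nearly equal because the authors had already brought the libraries to one depth. Values below are TMM-normalized counts (counts scaled to a common library size) unless a level per kilobase is named, and a gene is called higher or lower when edgeR's quasi-likelihood test gives an adjusted p, over all tested genes, under 0.05. The 7 neural crest markers checked were all higher in ENCDCs, with a summed level of 37270 to 48600 against 424.8 to 673.3 in gut cells. Markers of the other bowel cells were scarcer in ENCDCs but not absent. ENCDC replicate 3 held the most of several of them: its summed mesenchyme markers were 12.0% of the gut mean and its smooth muscle markers 16.4%, against 1.69% to 4.94% and 2.19% to 5.76% in the other 3 ENCDC libraries. Its correlations with the other ENCDC libraries across genes, on a log scale, were 0.936 to 0.942, and those among the other 3 were 0.966 to 0.971. The counts of called members, in all and for integrins and laminins, are therefore also given without it. So are the values of members whose call changed. In bulk RNA, fewer cells of a type and less RNA per cell cannot be told apart.

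Most of the expressed integrin and laminin genes were lower in ENCDCs, and 3 were higher: *Itga6*, *Itga4* and *Lama4*, which encode the laminin receptor chain alpha6, the fibronectin and VCAM1 receptor chain alpha4, and laminin alpha4. Of the 36 members with enough counts to test, 3 were higher, 19 were lower and 14 were not called. Over all 18866 tested genes, 17.0% were called higher and 20.9% lower. The median log2 fold change (ENCDC over gut) was -1.64 among the tested members and -0.041 among all tested genes. In 3 members every ENCDC library lay above every gut library, which 16.9% of all tested genes did, and in 18 members every ENCDC library lay below, which 21.3% did. Without ENCDC replicate 3 the called members were 5 higher and 23 lower, where all tested genes gave 18.7% and 22.3%. The members added by leaving it out were *Itga2* and *Itgb8* (higher) and *Lama5*, *Itga2b*, *Itgb4* and *Itgav* (lower). Voom and limma called 4 members higher and 24 lower, where 40.3% of all genes were called in either direction, and DESeq2 called 4 and 21, where 39.7% were. Tested against a 2-fold change, 2 were higher (5.21% of all genes) and 13 lower (10.8%).

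Among 25 tested integrin genes 2 were higher, 14 lower and 9 not called, with a median log2 fold change of -2.28. Among 11 laminin genes 1 was higher, 5 lower and 5 not called, with a median of -1.54. Without ENCDC replicate 3 the integrin counts were 4 higher and 17 lower, and the laminin counts 1 and 6. All tested genes gave 18.7% higher and 22.3% lower in that fit. Of the 14 members with a mean of at least 500 in the population where they were more abundant, 3 were higher, 9 were lower and 2 were not called. Of the 22 less abundant ones 10 were lower and 12 were not called. The counts here and those by role below stand beside 17.0% of all tested genes called higher and 20.9% called lower. Those shares were not split by abundance, so the abundance groups have no share of their own beside them. *Itgad* and the second *Itgam* identifier had too few counts to test, with sums over all libraries of at most 3.

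**Figure D1:**
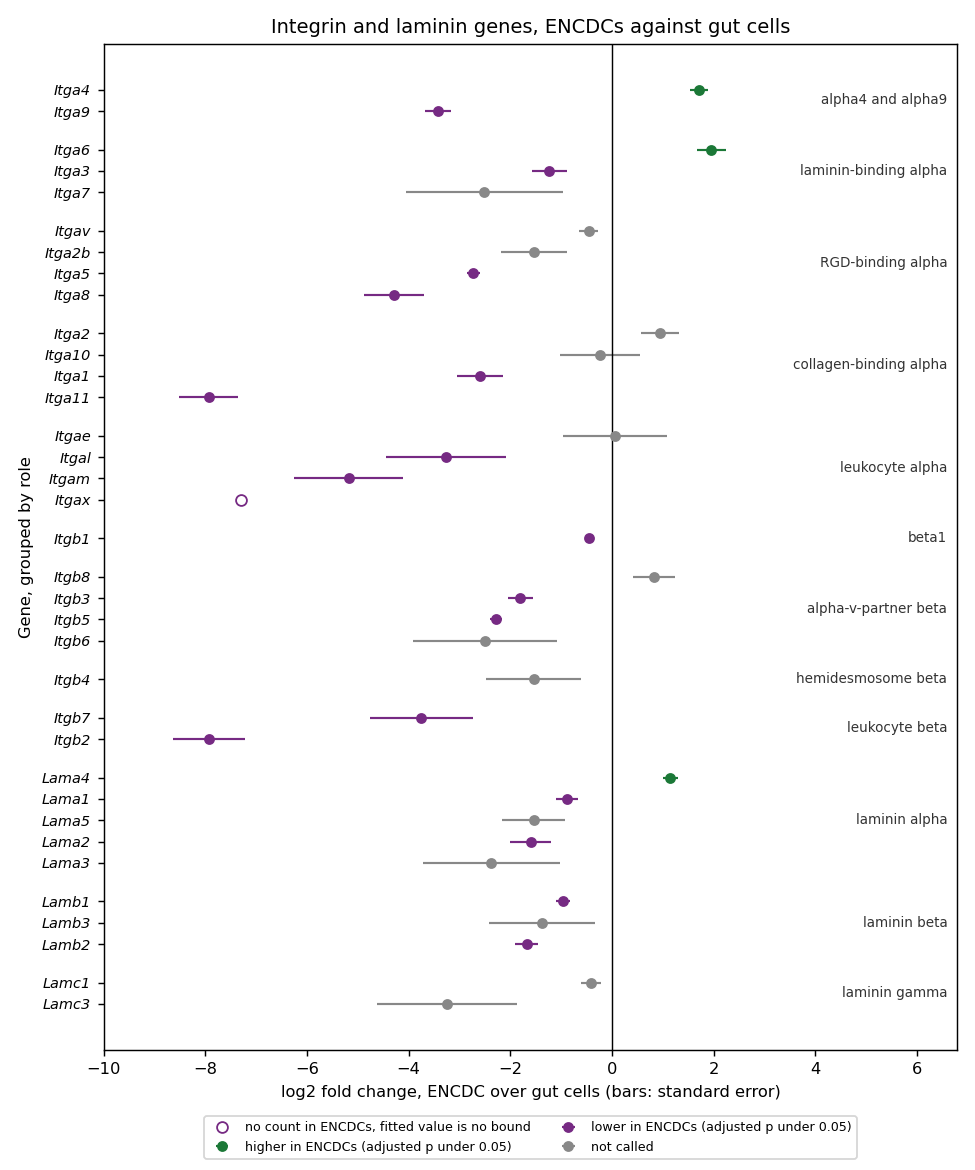
Log2 fold change, ENCDC over gut (x axis), for 35 of the 36 tested members, grouped by role (y axis), with the standard error as bars and the call as colour. Green points on the right are *Itga4*, *Itga6* and *Lama4*, and the open circle is *Itgax*, which had no count in ENCDCs.

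The related chains alpha4 and alpha9 differed in opposite directions between the populations. Alpha4 pairs with beta1 or beta7 and binds fibronectin and VCAM1. *Itga4* (chr2:79255426-79333123 in mm10, forward strand) stood at 1531, 1537, 1248 and 2149 in ENCDC replicates 1 to 4, and at 514, 618, 416 and 432 in gut replicates 1 to 4. The lowest ENCDC library was above the highest gut library, and the means were 1616 ± 379.8 and 494.7 ± 92.5 (SD, n = 4 each). Its log2 fold change was 1.71 (SE 0.18, adjusted p = 2.98e-05), a 3.27-fold difference. The exons of *Itga4* share 1124 bases with *Cerkl* on the opposite strand, which the unstranded kit cannot separate, and *Cerkl* itself had mean counts of 3.25 in ENCDCs and 4.25 in gut cells.

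*Itga9*, whose product binds tenascin and VCAM1, stood at 117, 121, 264 and 132 in ENCDC replicates 1 to 4 and at 1735, 1579, 1939 and 1521 in the gut replicates. All ENCDC libraries were far below all gut libraries, and replicate 3 was the highest of the 4. The log2 fold change was -3.42 (SE 0.25, adjusted p = 1.68e-06).

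Alpha4 shares a ligand, fibronectin, with alpha5, whose gene was lower in ENCDCs. The 250 bases before the RefSeq start of *Itga4* and *Itga5* are shown because these genes for fibronectin receptor chains were called in opposite directions. Capitals mark GC boxes, the letters GGGCGG or CCGCCC, counted on both strands. The *Itga4* stretch is chr2:79255176-79255425 on the forward strand and the *Itga5* stretch is chr15:103366792-103367041 on the reverse strand, printed 5′ to 3′ along the gene from GRCm38.p6.
Itga4: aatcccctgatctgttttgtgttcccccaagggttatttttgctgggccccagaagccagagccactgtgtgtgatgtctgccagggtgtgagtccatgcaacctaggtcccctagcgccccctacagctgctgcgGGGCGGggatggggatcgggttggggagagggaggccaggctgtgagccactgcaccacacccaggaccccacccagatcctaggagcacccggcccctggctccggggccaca
Itga5: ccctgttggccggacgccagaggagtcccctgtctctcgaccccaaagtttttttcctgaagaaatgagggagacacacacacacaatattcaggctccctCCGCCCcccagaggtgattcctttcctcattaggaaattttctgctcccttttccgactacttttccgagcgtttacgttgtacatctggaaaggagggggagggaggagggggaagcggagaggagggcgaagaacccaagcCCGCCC
The *Itga4* stretch held 1 GC box and 6 CpG, with 64.0% G or C, and the *Itga5* stretch held 2 GC boxes and 11 CpG, with 55.6%. A GC box was found in 9 of the 26 promoters listed for 23 member symbols and in 32.7% of all 32851 promoters listed. These letters are a description of the sequence and were not tied to the counts.

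Of the 3 laminin-binding alpha chains, *Itga6* was higher in ENCDCs, *Itga3* was lower and *Itga7* was not called. *Itga6* (chr2:71745616-71858416, forward strand) stood at 1508, 1622, 1440 and 2315 in ENCDC replicates 1 to 4 and at 531, 310, 676 and 251 in the gut replicates. The populations did not overlap, although the gut libraries varied more than 2-fold among themselves. The means were 1721 ± 403 and 441.8 ± 197.2 (SD, n = 4), and the log2 fold change was 1.96 (SE 0.29, adjusted p = 3.04e-04), a 3.89-fold difference. It had the largest fold change of the 3 higher members. *Itga3*, which pairs with beta1 in epithelia, was lower, at a mean of 170.2 against 400.3 (log2 fold change -1.23, SE 0.35, adjusted p = 0.0161). *Itga7*, best known from muscle, had counts in 1 ENCDC library (17, in replicate 4) and in 3 gut libraries, and its adjusted p was 0.231.

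The RGD-binding alpha chains included the most abundant alpha chains of gut cells. *Itga5*, the fibronectin receptor chain, stood at 425, 388, 510.1 and 528 in ENCDC replicates 1 to 4 and at 3135, 2843, 3371 and 2954 in the gut replicates. Each population was tight and the gap between them wide, with a log2 fold change of -2.73 (SE 0.13, adjusted p = 4.98e-08), 6.65-fold lower. *Itga8*, the nephronectin receptor chain of mesenchyme and smooth muscle, stood at 152, 68.1, 478 and 44.4 in ENCDCs and at 3237, 3533, 3936 and 3810.2 in gut cells. ENCDC replicate 3, the library with the most mesenchyme and smooth muscle marker RNA, was the highest of the ENCDC libraries. The log2 fold change of *Itga8* was -4.29 (SE 0.59, adjusted p = 1.80e-04) and -5.36 without that library, whose part in the value was not tested beyond leaving it out. Its exons share 372 bases with the antisense gene *E030013I19Rik*, which had mean counts of 2.75 and 197.25.

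*Itgav*, the chain that pairs with several beta chains to bind vitronectin and latent TGF-beta, was close in both populations. It stood at 969, 957, 1658 and 1528 in ENCDC replicates 1 to 4 and at 1568, 1606, 2068 and 1798 in the gut replicates. Replicates 3 and 4 of ENCDCs fell in or near the gut range while replicates 1 and 2 fell below it. The log2 fold change was -0.46 (SE 0.19, adjusted p = 0.0746), not called, and -0.61 (adjusted p = 0.0142) without ENCDC replicate 3. *Itga2b*, the platelet chain, had a mean of 34.6 in ENCDCs, with 87.4 in replicate 3 and 11.4 to 26.4 in the others, against 100.6 in gut cells (adjusted p = 0.0872). Without ENCDC replicate 3 its log2 fold change was -2.56 (adjusted p = 2.02e-03). The summed level of 5 platelet markers in that library was 47.1% of the gut mean, against 7.09% to 15.9% in the others. These sums were small, 25.8 to 171.7 in ENCDCs and 258.4 to 468.3 in gut cells, and 2 of the 5 markers were called lower. The part of these markers in the result was not tested.

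Of the 4 collagen-binding alpha chains 2 were lower and 2 were not called. *Itga1* stood at 164.5, 24.4, 54.2 and 109.5 in ENCDC replicates 1 to 4 and at 506, 453, 609 and 559 in the gut replicates. The ENCDC libraries varied widely but all lay below the gut libraries (log2 fold change -2.59, SE 0.45, adjusted p = 8.90e-04). *Itga11*, a fibrillar collagen receptor chain of fibroblasts, had 3 reads in all ENCDC libraries together against 882 in the gut libraries, a ratio of 294 with an exact 95% counting interval of 100 to 1430 (adjusted p = 1.44e-06). *Itga2* had the other sign, with means of 146.9 ± 43.9 in ENCDCs and 75.8 ± 36.1 in gut cells, but gut replicate 2 at 129 lay within the ENCDC range of 107.4 to 209.7. Its log2 fold change was 0.95 (SE 0.37, adjusted p = 0.0615), and it was called without gut replicate 2 (1.31, adjusted p = 0.0159) or without ENCDC replicate 3 (1.08, adjusted p = 0.0329). *Itga10*, a collagen receptor chain of cartilage, had means of 4.56 and 5.40 and an adjusted p of 0.845.

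*Itgb1*, the common partner of most of the alpha chains above, had the highest level per kilobase of any member in both populations. It stood at 9345, 9973, 9628 and 10483 in ENCDC replicates 1 to 4 and at 13923, 12215, 13872 and 13925 in the gut replicates. The libraries of each population were close together and the populations did not overlap, so a small difference was called: 9857 ± 489.9 against 13480 ± 846.3 (SD, n = 4), a log2 fold change of -0.45 (SE 0.07, adjusted p = 5.81e-04), 1.37-fold lower.

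The beta chains that pair with alpha-v split into 2 that were lower and 2 that were not called. *Itgb5*, a vitronectin receptor chain, stood at 586, 628, 694 and 487 in ENCDC replicates 1 to 4 and at 2970.1, 2575, 3102 and 3002 in the gut replicates. No library of one population came near the other (log2 fold change -2.28, SE 0.12, adjusted p = 1.80e-07). *Itgb3* was lower, with means of 137.6 and 480.2 (log2 fold change -1.80, SE 0.25, adjusted p = 2.15e-04). *Itgb8*, whose pair with alpha-v activates latent TGF-beta, stood at 198, 186, 51.2 and 206 in ENCDC replicates 1 to 4 and at 60.2, 93.6, 102 and 104 in the gut replicates. In 3 ENCDC libraries it was above every gut library and in replicate 3 below them all, so that it was not called (log2 fold change 0.83, SE 0.41, adjusted p = 0.136). Without ENCDC replicate 3 it was called higher, at 1.13 (adjusted p = 4.47e-03). *Itgb6*, an epithelial chain, had 15 reads in 1 ENCDC library and none in the other 3, against 2 to 45 reads in the gut libraries (adjusted p = 0.196).

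*Itgb4*, the hemidesmosome chain that pairs with alpha6 in epithelia, stood at 3, 8.1, 35.1 and 1 in ENCDC replicates 1 to 4 and at 52.5, 13.8, 19.7 and 52.5 in the gut replicates. Replicate 3 fell among the gut libraries and the other 3 ENCDC libraries below them. It was not called (adjusted p = 0.225), and without ENCDC replicate 3 its log2 fold change was -3.05 (adjusted p = 0.0128). Alpha6 can pair with beta4 or with beta1, and in ENCDCs the mean level per kilobase of exon was 0.459 counts per kilobase per 1000000 for *Itgb4* and 668 for *Itgb1*.

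**Figure D2:**
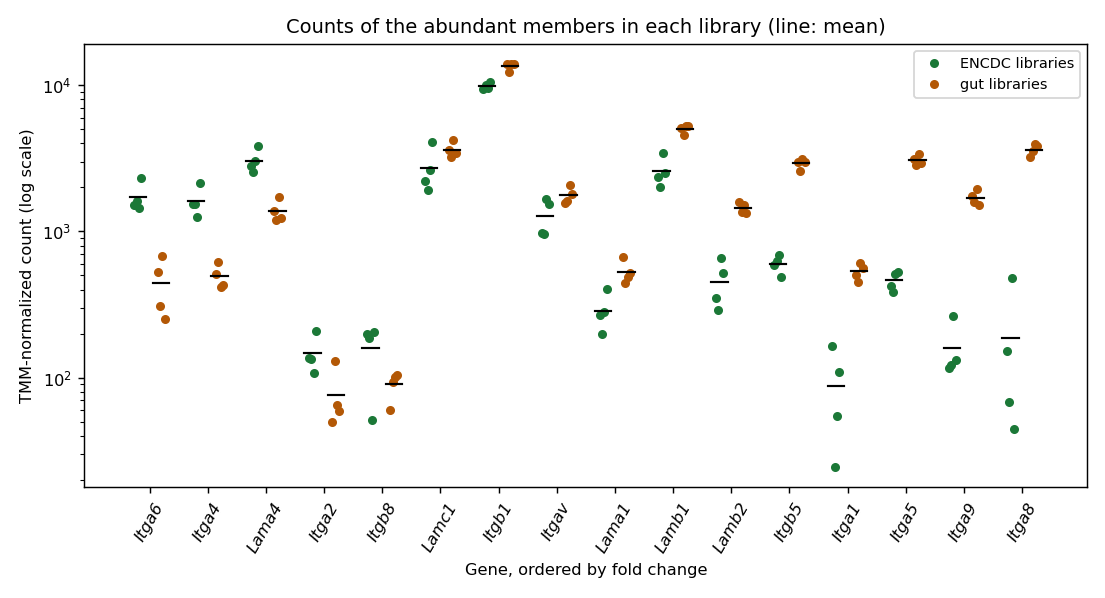
TMM-normalized count on a log axis (y axis) in each of the 4 ENCDC and 4 gut libraries for the 14 abundant members with *Itga2* and *Itgb8* added (x axis, ordered by fold change), with the mean as a line. *Itga6*, *Itga4* and *Lama4* lie higher in every ENCDC library than in any gut library, and the single low ENCDC point of *Itgb8* is replicate 3, at 51.2.

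The leukocyte integrins were at or near 0 in most ENCDC libraries. Of 4 tested alpha chain genes 3 were lower and 1 was not called, and both beta chains were lower. *Itgb2*, the shared beta chain of the leukocyte alpha chains L, M, X and D, had 3 reads over the ENCDC libraries against 885 over the gut libraries, a ratio of 295 with an exact 95% counting interval of 101 to 1430 (adjusted p = 7.14e-06). *Itgam*, the macrophage chain, had 4 reads in 1 ENCDC library and none in the others, against 29 to 65 in the gut libraries (adjusted p = 2.81e-03). Its exons share 3450 bases with the second gene listed as *Itgam*, so it is uncertain how reads there were counted. The second had 3 reads in all. *Itgax*, a chain of dendritic cells and macrophages, had no read in any ENCDC library. With that group set at 3 reads over its 4 libraries, the level there was at least 26.1-fold lower (adjusted p = 0.0137). Gut replicate 4 also had none, so the populations overlapped at 0. *Itgae* had means of 3.85 and 3.69 and an adjusted p of 0.972.

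For *Itgal* and *Itgb7*, chains of lymphocytes, the size of the fold change depended on ENCDC replicate 3. *Itgal* stood at 0, 0, 76.3 and 2.1 in ENCDC replicates 1 to 4 and at 347, 184, 89.8 and 144 in the gut replicates. Replicate 3 was close to the lowest gut library, and the log2 fold change was -3.27 (SE 1.18, adjusted p = 0.0478) with it and -7.89 without it. Leaving out any one of the other 7 libraries ended the call, with adjusted p from 0.0637 to 0.14. *Itgb7* stood at 2, 0, 42.2 and 1 in ENCDCs and at 118 to 192.4 in gut cells, with a log2 fold change of -3.75 (SE 1.01, adjusted p = 0.0133), or -7.07 without replicate 3, and stayed called without any single library (adjusted p at most 0.0371). All 7 markers of macrophages and leukocytes were lower in ENCDCs, where their sum was 517.6 to 978 against 4021 to 8749. *Coro1a* and *Laptm5* made up most of what remained in ENCDCs, while *Ptprc*, the pan-leukocyte marker CD45, was at 0, 0, 0 and 1 in ENCDC replicates 1 to 4 and at 274.3 to 564.5 in gut cells. In ENCDC replicate 3 *Itgal* was at 76.3 and *Itgb7* at 42.2. *Ptprc* was at 0 there, *Csf1r*, the macrophage receptor for CSF1, at 1 and *Fcer1g* at 9. The other markers, *Cd68*, *Coro1a*, *Laptm5* and *Tyrobp*, were at 55.2, 600.5, 307.3 and 5.0 there, each the highest of the ENCDC libraries. *Ptprc* and *Csf1r* were singled out after their values were seen. The part of the 7 markers in the leukocyte integrin results was not tested.

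Among the 5 laminin alpha chains 1 was higher, 2 were lower and 2 were not called. *Lama4* (chr10:38965515-39110188, forward strand), the laminin alpha chain of vessels, nerve and embryonic mesenchyme, stood at 2800.4, 2546, 3039 and 3813 in ENCDC replicates 1 to 4 and at 1370, 1187, 1705 and 1235 in the gut replicates. Every ENCDC library was above every gut library, and the means were 3049 ± 547.5 and 1374 ± 234 (SD, n = 4). The log2 fold change was 1.15 (SE 0.15, adjusted p = 1.26e-04), a 2.22-fold difference. Endothelial cells also make laminin alpha4. The 6 endothelial markers had a summed level of 86.4 to 155 in ENCDCs against 504.2 to 943.4 in gut cells, and 4 of them were called lower. Within ENCDCs replicate 4 was the highest library for both *Lama4* and these markers (21.9% of the gut mean, against 12.2% to 17.5%). It was also the highest for the neural crest markers, at 48600 against 37270 to 38530 in the other ENCDC libraries. The part of either marker list in the *Lama4* level was not tested.

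*Lama1*, the alpha chain of the earliest epithelial basement membranes, stood at 269, 197, 279 and 402 in ENCDC replicates 1 to 4 and at 669, 445, 484 and 521 in the gut replicates. The highest ENCDC library came near the lowest gut library without crossing it (log2 fold change -0.88, SE 0.22, adjusted p = 9.57e-03). *Lama2*, the chain of muscle and nerve basement membrane, was lower, with means of 86.9 and 264 (log2 fold change -1.60, SE 0.41, adjusted p = 9.36e-03). *Lama5*, the broadly used epithelial chain, stood at 40.6, 37.6, 356.5 and 76.4 in ENCDCs and at 351, 304, 478 and 355 in gut cells. Replicate 3 was inside the gut range and the other 3 ENCDC libraries far below it, so that it was not called with all libraries (log2 fold change -1.54, SE 0.62, adjusted p = 0.0714) and was called without replicate 3 (-2.85, adjusted p = 1.52e-05). The summed epithelium markers of replicate 3 were 19.3% of the gut mean, against 9.01% to 14.9% in the other ENCDC libraries, and their part in the *Lama5* value was not tested. *Lama3*, a chain of stratified epithelium, had reads in ENCDC replicate 1 and in no other ENCDC library (14 reads), and its adjusted p was 0.194.

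The beta and gamma chains that complete the common trimers were lower or not called. *Lamb1* stood at 2372, 2023, 3445 and 2511 in ENCDC replicates 1 to 4 and at 5116, 4560, 5223 and 5259 in the gut replicates. ENCDC replicate 3 was the highest of its group and still below all gut libraries (log2 fold change -0.96, SE 0.14, adjusted p = 3.39e-04). *Lamb2* stood at 347, 289.8, 655 and 517 in ENCDCs and at 1588, 1363, 1524 and 1336 in gut cells. All 4 ENCDC libraries lay below the gut libraries (log2 fold change -1.68, SE 0.22, adjusted p = 1.45e-04).

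*Lamc1*, the gamma chain of most laminins, stood at 2219, 1927, 2640 and 4110 in ENCDC replicates 1 to 4 and at 3608, 3233, 4189 and 3420 in the gut replicates. ENCDC replicate 4 was as high as the gut libraries and the other 3 were below them, so that it was not called (log2 fold change -0.41, SE 0.20, adjusted p = 0.14) and was called without replicate 4 (-0.68, adjusted p = 2.80e-03). The epithelial chain *Lamb3* and the chain *Lamc3* had means of at most 27.4 in either population and were not called. The ENCDC reads of *Lamc3*, 11 in all, came from replicate 1 alone.

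Levels per kilobase of exon, which allow genes to be compared with each other, gave a different order of alpha chains in the populations. In ENCDCs *Itga6* led at 52.9 counts per kilobase per 1000000 counts, with libraries from 43.3 to 72.5. *Itgav* at 32.9, *Itga4* at 32.1 and *Itga5* at 25.9 followed, with overlapping ranges. The highest library of *Itgav* was at 41.8, under all those of *Itga6*, and the highest of *Itga4* at 43.4, just above the lowest of *Itga6*. In gut cells *Itga5* at 176 and *Itga8* at 139 led, followed by *Itga9* at 62.2 and *Itgav* at 46.3, whose ranges met (lowest 55.0 and highest 55.2). With the longest coding transcript as length the gut order of these 2 turned, *Itga9* holding 10.7% of the alpha chain level and *Itgav* slightly more, between 9.87% and 11.7% in the libraries. *Itga6* held 23.7% to 34.6% of the summed alpha chain level in the ENCDC libraries and 1.59% to 3.77% in the gut libraries. *Itga4* held 13.2% to 21.2% and 1.49% to 2.63%. *Itga8*, by contrast, held 0.776% to 9.62% in ENCDCs and 24.6% to 29.6% in gut cells. The summed alpha chain level was 141 to 220 in ENCDCs and 461 to 571 in gut cells, so the larger shares of *Itga6* and *Itga4* went with a smaller total.

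Among beta chains *Itgb1* held 90.4% to 93.3% of the level in ENCDCs and 74.9% to 76.9% in gut cells, and *Itgb5* held 4.97% to 7.49% and 18.3% to 19.6%. Among laminin alpha chains *Lama4* held 79.9% to 88.9% in ENCDCs and 49.0% to 55.4% in gut cells, while *Lama1* held 8.59% to 11.1% and 19.6% to 29.8%. *Lama5* held 1.32% to 1.79% in 3 ENCDC libraries, 9.94% in replicate 3 and 13.3% to 16.5% in gut cells. Shares depend on the length used: with the longest coding transcript, the mean share of *Lama1* was 5.35% in ENCDCs and 16.3% in gut cells (9.79% and 25.1% with all exon bases) and that of *Lama5* 1.98% and 9.43% (3.61% and 14.9%). The summed laminin alpha level overlapped, at 64.6 to 106 in ENCDCs and 51.0 to 73.1 in gut cells, whereas the laminin beta sum was 68.5 to 124 against 187 to 226. *Lamb1* held most of the beta level in both populations (78.1% and 67.8% on average), and *Lamc1* nearly all of the gamma level (99.7% and 96.1%).

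**Figure D3:**
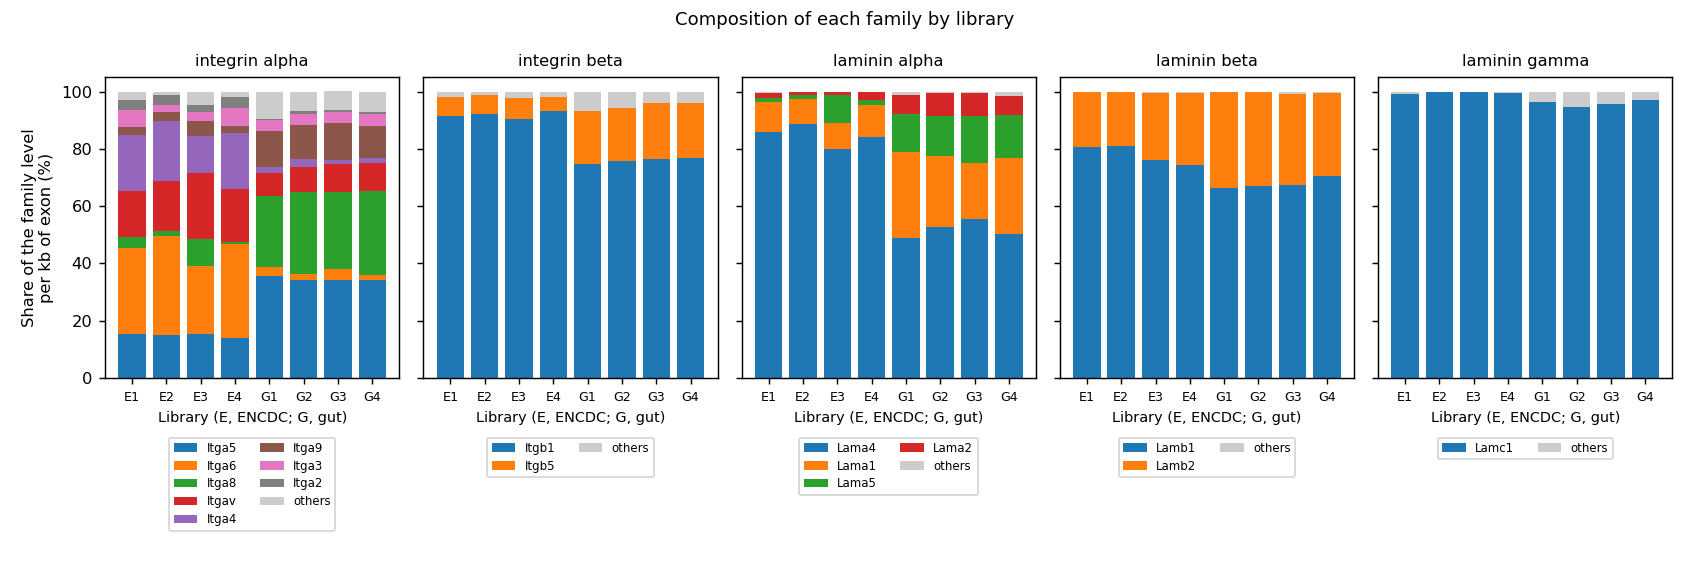
Share of each family's summed level per kilobase of exon held by each gene (y axis, %) in the 4 ENCDC libraries (E1 to E4) and 4 gut libraries (G1 to G4), with genes under 3% in both populations joined as others. *Itga6* and *Itga4* widen in the ENCDC bars, *Itga5*, *Itga8* and *Itga9* in the gut bars, and *Lama4* holds most of the laminin alpha bar in ENCDCs.

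The molecules that integrins and laminins work with were counted by fixed lists. Of 31 tested adaptors and activators, which link beta chains to actin and switch integrins on, 3 were higher, 17 lower and 11 not called, with a median log2 fold change of -0.56. These and the list counts that follow stand beside 17.0% of all tested genes called higher, 20.9% called lower and a median of -0.041. *Nedd9*, a docking protein for focal adhesion kinase, was the clear exception, at 6782 against 457.7 (log2 fold change 3.89, SE 0.17, adjusted p = 3.93e-08). *Krit1*, a regulator of beta1 activation, and *Ptk2*, focal adhesion kinase itself, were higher by 0.43 (adjusted p = 0.0148) and 0.29 (adjusted p = 0.039) on the log2 scale. The list had 5 higher genes without ENCDC replicate 3 and 1 without gut replicate 2. It had 2 without ENCDC replicate 1, ENCDC replicate 4, gut replicate 1 or gut replicate 4. With RLE factors, no factors, no filter on low counts, or the replicate number as a block, it also had 2. The abundant lower genes were *Actn4*, *Parva*, *Rap1b* and *Tln1*, with log2 fold changes of -0.56, -1.65, -0.67 and -1.07 and adjusted p of at most 7.74e-04. *Tln1* encodes talin, which turns integrins on, and shares 360 exon bases with *Creb3* on the other strand, a gene with mean counts of 939.75 and 794.25.

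Of 20 other integrin ligands 2 were higher, 16 lower and 2 not called, with a median of -2.41. The neural adhesion molecule *L1cam* was at 3128 against 54.6 (log2 fold change 5.84, SE 0.28, adjusted p = 7.21e-08), and *Postn*, encoding periostin, at 5384 against 3593 (0.58, SE 0.12, adjusted p = 3.46e-03). The abundant lower ligands were *Col1a2*, *Col1a1*, *Emilin1* and *Fn1*, the collagen I chains, an elastic fibre protein and fibronectin, with log2 fold changes of -4.25, -4.09, -1.60 and -2.18 and adjusted p of at most 1.98e-04. *Col1a1* and *Col1a2* were also on the mesenchyme marker list, whose 6 genes were all lower.

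Of 10 tested basement membrane partners of laminin 2 were higher and 8 lower, with a median of -2.17. *Col18a1*, encoding collagen XVIII, was at 5463 against 1312 (log2 fold change 2.06, SE 0.24, adjusted p = 5.79e-05), and *Agrn*, encoding agrin, at 3363 against 2417 (0.48, SE 0.16, adjusted p = 0.0337). One of these 2 calls was lost without ENCDC replicate 3, ENCDC replicate 4, gut replicate 1 or gut replicate 2. A higher call was also lost with RLE factors or with no factors. *Nid1*, *Col4a1*, *Col4a2* and *Nid2*, the nidogens that bridge laminin to collagen IV and the main collagen IV chains, were lower, with log2 fold changes of -0.33, -2.98, -2.74 and -1.60 and adjusted p of at most 0.0236. The nidogen *Nid2* shares 437 exon bases with *Rtraf* on the other strand, which had mean counts of 2365.75 and 1956.5.

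Of 6 laminin receptors that are not integrins 1 was higher and 4 lower, beside the same 17.0% and 20.9% of all genes, and 1 was not called, with a median of -1.16. *Sdc3*, the neural syndecan, was at 3550.0 against 2063 (log2 fold change 0.78, SE 0.16, adjusted p = 2.36e-03), and 2 genes were called higher without ENCDC replicate 1, ENCDC replicate 3 or gut replicate 3. *Dag1*, encoding dystroglycan, was at 2855 against 2174 and was not called (0.39, adjusted p = 0.0542). *Sdc1*, *Sdc2*, *Bcam* and *Sdc4* were lower, with log2 fold changes of -0.64, -1.96, -2.72 and -1.67. Of 14 genes of the dystroglycan complex and of the enzymes that build its laminin-binding sugar 2 were higher (*Dmd* among them, 0.92, adjusted p = 0.0149), 5 lower (the 4 most abundant being *Sgce*, *B4gat1*, *Utrn* and *Sspn*) and 7 not called, with a median of -0.32. The annotated exons of *B4gat1* overlap *AC124502.3* on the same strand over 85.3% of their length, so its count is uncertain. The lower count of this list fell to 3 without ENCDC replicate 2, ENCDC replicate 3, gut replicate 1 or gut replicate 2, and to 2 without gut replicate 3. Its higher count fell to 1 without ENCDC replicate 2, gut replicate 1 or gut replicate 2.

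**Figure D4:**
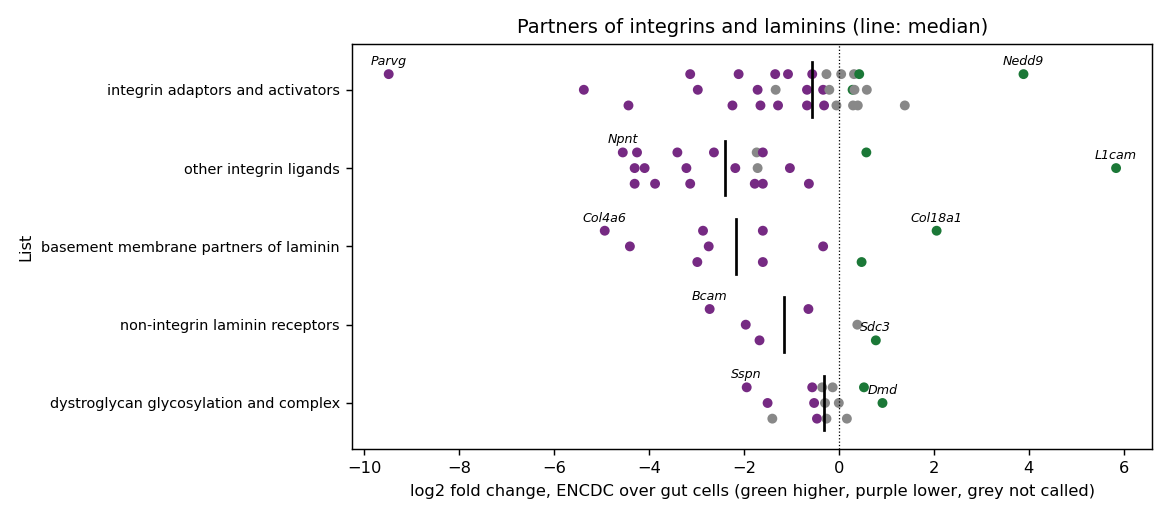
Log2 fold change, ENCDC over gut (x axis), for each tested gene of the 5 partner lists (y axis), coloured by call, with the list median as a line and the extreme genes named. Most points lie left of 0, and *L1cam* at 5.84, *Nedd9* at 3.89 and *Col18a1* at 2.06 stand to the right.

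The lower members were not at one common fraction of their gut level. As a percent of the gut mean, the median over the 19 lower members was 13.8, 7.15, 19.4 and 17.2 in ENCDC replicates 1 to 4. Replicate 3 was the highest ENCDC library in 8 of them, replicate 4 in 7, replicate 1 in 3 and replicate 2 in 0, with *Itgax* at 0 in all. Replicate 3 was the highest for *Itga8*, *Itga9*, *Itgal*, *Itgb3*, *Itgb5*, *Itgb7*, *Lamb1* and *Lamb2*. For *Itgb3* the lead was small, 35.5% of the gut mean against 35.3% in replicate 4. Its summed markers of mesenchyme, smooth muscle, epithelium, mesothelium, pericytes, macrophages and leukocytes, and platelets were also the highest of the ENCDC libraries. The 7 leukocyte markers were divided there. *Cd68*, *Coro1a*, *Laptm5* and *Tyrobp* were at 55.2, 600.5, 307.3 and 5.0, each the highest ENCDC value. *Ptprc*, *Csf1r* and *Fcer1g* were at 0, 1 and 9, no higher than in any other ENCDC library. Members highest in replicate 4 included *Itga3*, *Itga5*, *Itgam*, *Itgb1*, *Lama1* and *Lama2*. In that library the endothelium markers were at 21.9% of the gut mean, the highest of the ENCDC libraries, the epithelium markers at 14.9%, the second highest, and the mesenchyme and smooth muscle markers at 2.73% and 2.19%. The summed neural crest markers were also the highest in replicate 4, at 48600 against 37270 to 38530 in the other ENCDC libraries. The part of other cell types in these levels was not tested.

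**Figure D5:**
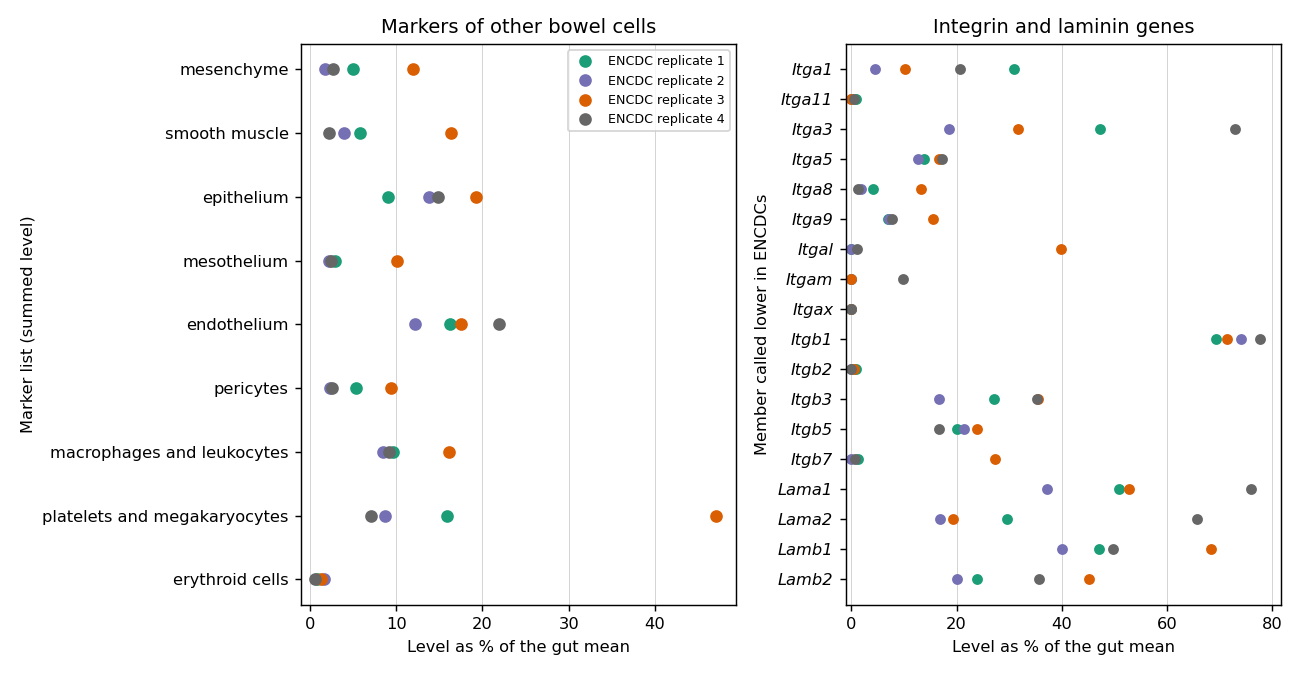
Level in each ENCDC library as a percent of the gut mean (x axes) for the summed marker lists of other bowel cells (left) and for 18 of the 19 members called lower (right), with one point per ENCDC replicate. Replicate 3 is to the right in most marker lists, the 4 points of *Itgb1* lie close together on the right, and *Itga11*, *Itgb2* and *Itgax* lie at or near 0.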

How the data were processed

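mRNA-seq libraries were made from 750 pg of RNA per sample with SMARTer and NexteraXT kits, which do not keep the strand. The authors aligned reads to mm10 with STAR 2.4.2a and normalized them with PORT. The deposited values used here are the minimum counts per gene, as whole numbers. Their treatment of reads shared between genes was not examined. The submitters' design text mentions small RNA and CPM, but the values are mRNA counts.

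Tested genes had, in 1 population or both, a mean of 3 or more reads with reads in 3 or more of its 4 libraries. The test was run in R 4.3.3 with edgeR 4.0.16 (TMM factors, quasi-likelihood F test, Benjamini-Hochberg adjustment over all 18866 genes). The SE is the absolute log2 fold change over the square root of F. Exon lengths, positions and overlaps came from GENCODE M21, promoters from RefSeq (GRCm38.p6). Alternatives were voom with limma 3.58.1, DESeq2 1.42.0, other factors, filters and a 2-fold threshold, a replicate block and leaving out each library. Scripts were tested on simulated data. Intervals cover counting error only.

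Full values were given for members whose mean reached 500 in either population, and for members called against most of their role group; other members are summarised, and further per-library values were added where a single library decided the result. Each partner list names up to 4 called genes a direction by mean count. The members and lists were chosen with earlier results of these data known. Small RNA data were not analysed here, and some genes counted in the totals are not reported by name.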

Additional observations from a re-analysis of the deposited data

Results flagged for a closer look

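Within groups of 4 libraries, the highest or lowest library of a member was set apart by Dixon's criterion (the gap to the nearest other library, over the range) in 13 of 69 groups, and chance flags about 1 in 20 groups of continuous values. In 5 of these members (*Itga7*, *Itgam*, *Itgb6*, *Lama3* and *Lamc3*) all ENCDC reads came from 1 library, which meets the criterion by construction, so that rate does not apply to them. ENCDC replicate 3 stood apart as the highest library for *Itga9* (264.1), *Itgal* (76.3), *Itgb7* (42.2) and *Lama5* (356.5), and as the lowest for *Itgb8* (51.2). ENCDC replicate 1 stood apart for *Itgb6* (15.2), *Lama3* (14.2) and *Lamc3* (11.2), each with no read in the other ENCDC libraries. ENCDC replicate 4 stood apart for *Itga7* (17.6) and *Itgam* (4.1). In gut cells replicate 1 was the highest for *Itga10* (6.8), replicate 3 the highest for *Lamb3* (39.5) and replicate 2 the lowest for *Itgb1* (12214.5).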

How the results depend on the processing

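Leaving out 1 library at a time gave 3 to 5 higher and 18 to 23 lower members; the 5 higher members, without ENCDC replicate 3, were the 3 called with all libraries, *Itga2* and *Itgb8*. Across partner lists it gave 6 to 12 higher genes, against 10 with all libraries, and 43 to 49 lower, against 50, with 6 higher without gut replicate 2. Over all 18866 tested genes, leaving out 1 library gave 2614 to 3527 called higher and 3280 to 4213 lower. With all libraries these counts were 3212 and 3946. RLE factors left 3 higher and 19 lower members, where all genes gave 2960 and 4138. No factors also left 3 and 19, where all genes gave 2877 and 4177. Voom and limma gave 4 and 24, where all genes gave 17.2% and 23.1%. DESeq2 gave 4 and 21, where all genes gave 17.0% and 22.7%. The test against a 2-fold change gave 2 and 13, where all genes gave 5.21% and 10.8%. *Lama4* was not called in that test (adjusted p = 0.245). Deviations of same-numbered libraries correlated at 0.00554, 0.0318, -0.0133 and 0.00484, and those of differently numbered ones at -0.0502 to 0.0611. The labels' replicate numbers thus showed no pairing, but noise of single libraries can hide a shared source. The check could not decide whether same-numbered libraries came from the same bowels. The fit with the replicate number as a block gave 3 higher and 21 lower members, where 13.8% and 17.6% of all genes were called. The sign of *Itgae* reversed with no factors (-0.00048), voom and limma (-0.58), the replicate block (-0.43), and without ENCDC replicate 4 (-1.07), gut replicate 2 (-0.17) or gut replicate 3 (-0.031), and that of *Itga10* without ENCDC replicate 4 (0.085). Over the left-out libraries *Itgae* ran from -1.07 to 0.46 and *Itga10* from -0.8 to 0.085. The causes were not tested. With the longest coding transcript as length, *Itga6* held 41.3% of the alpha chain level in ENCDCs and 4.62% in gut cells, and *Lama4* 91.1% and 65.8% of the laminin alpha level. Members with a few reads per library, such as the leukocyte chains, allow no finer statement on level than their counts.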
